A study of Mus musculus with 3 samples.

Results

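The 9 genes described here encode 8 transcription factors of the embryonic hypothalamus and its neighbors (*Rax*, *Six3*, *Six6*, *Hmx2*, *Hmx3*, *Otp*, *Sim1* and *Nr5a1*) and 1 hypothalamic peptide precursor (*Pomc*). They were taken by name. Each was matched through the RefSeq transcript that its array probe is labeled with, which gave 9 probes of the 55681 mouse probes and 9 of the 20145 genes that could be named. Every gene had 1 probe, printed at 1 spot per array, and none of these spots carried an outlier flag.

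RNA levels were measured on 3 one-color Agilent mouse arrays, 1 array for each sorted population. Both ES populations came from J14, a single mouse ES cell line of the 129S4/SvJae strain that carries GFP on an *Lhx6* bacterial artificial chromosome, so that GFP reports the *Lhx6* regulatory sequences of the transgene and not the *Lhx6* locus itself. The labels also give these cells a 692-mCherry enhancer reporter delivered by virus, and list them as male. They were grown as aggregates with 100 ng/ml Dkk-1, an inhibitor of Wnt signaling, and with 6 nM SAG, an agonist of the Hedgehog pathway, from day 3. On day 12 many aggregates were pooled and sorted into GFP-positive cells (ES-GFP+) and GFP-negative cells (ES-GFP-). The third population (MGE-GFP+) was GFP-positive cells sorted from the medial ganglionic eminence (MGE) of CD1 embryos at E12.5 that carried the same kind of transgene, and is listed as female. All 3 populations therefore carried *Lhx6*-GFP, while strain, listed sex, culture and enhancer reporter differ together between the MGE-GFP+ array and the others and cannot be told apart from tissue of origin. Because each population was measured once, no test was possible and no p-value is given.

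The hypothalamus forms from the ventral forebrain next to the MGE, and both depend on Hedgehog signaling and on the homeodomain factor Nkx2-1. *Rax*, *Six3* and *Six6* act in the anterior neural plate, where the eye field and the hypothalamus arise. *Hmx2* and *Hmx3* are expressed in the tuberal hypothalamus, *Otp* and *Sim1* specify neuroendocrine neurons of the paraventricular nucleus, *Nr5a1* marks the ventromedial nucleus, and *Pomc* encodes the melanocortin precursor made by arcuate neurons and pituitary cells.

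The labeled cell types were first set against 19 genes of the telencephalon and MGE. All 19 were well above background on each array. Their summed intensity, in units of the array's 75th percentile, was 201 for ES-GFP+, 52.1 for ES-GFP- and 355 for MGE-GFP+ cells. *Lhx6*, whose regulatory sequences drive the reporter, had 3 probes that disagreed. The probe for NM_001083125 was at 5818 for ES-GFP+, 399 for ES-GFP- and 10244 for MGE-GFP+ cells, and 1 probe for NM_008500 was at 16913, 1373 and 25391 in that order. The other probe for NM_008500 was at 111947, 122188 and 97733, bright on each array, with scaled values that differed by at most 1.17-fold between arrays. So the summed markers and 2 of the 3 *Lhx6* probes followed the labels, and the ES-GFP- cells also gave signal for all 19.

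The intensities of this section are in arbitrary units after background subtraction by the scanner software, and were not scaled between arrays. Log2 differences were taken after scaling each array to its 75th percentile, which was 747 for ES-GFP+, 843 for ES-GFP- and 576 for MGE-GFP+ cells. The value after ± is the error that the software assigns to a spot. It says nothing of the spread between cultures or embryos. Probes printed at 5 or more spots had an SD of log2 intensity of 0.139 on the ES-GFP+, 0.141 on the ES-GFP- and 0.144 on the MGE-GFP+ array, so that 2 SDs of a difference between arrays came to 0.40 on the log2 scale, or 1.32-fold. As a strict gauge of signal that comes from no mouse transcript, 106 control probes were used. They were designed for synthetic ERCC spike-ins and for adenovirus E1A, and whether such RNA was added to the samples was not tested. Their 95th percentile was 377 on the ES-GFP+, 208 on the ES-GFP- and 152 on the MGE-GFP+ array, and a probe under this value is described as within the range of the controls. A gene was called different where it differed at least 4-fold and was above that percentile on the array where it was higher. Each array also held 308 negative control spots, which were dimmer. Their 95th percentile was 5.70 on the ES-GFP+, 5.04 on the ES-GFP- and 3.17 on the MGE-GFP+ array. A signal within the range of the 106 control probes can therefore still come from a mouse transcript.

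Of the 9 genes, 8 were well above background for ES-GFP+, 8 for ES-GFP- and 7 for MGE-GFP+ cells. Of all mouse probes, 90.6%, 80.3% and 77.1% were, so these counts do not set the 9 genes apart. The share of all probes above the controls was not taken, so the next counts are not set against it. Above the range of the controls were 4, 4 and 3 of the 9 genes. *Nr5a1* and *Six3* were above it on all 3 arrays. *Hmx2* was above it in both ES populations, *Rax* only in ES-GFP+, *Hmx3* only in ES-GFP- and *Pomc* only in MGE-GFP+ cells. *Otp*, *Six6* and *Sim1* stayed within it on every array. In a bulk sample, fewer cells that express a gene and less RNA per cell cannot be told apart.

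**Figure D1:**
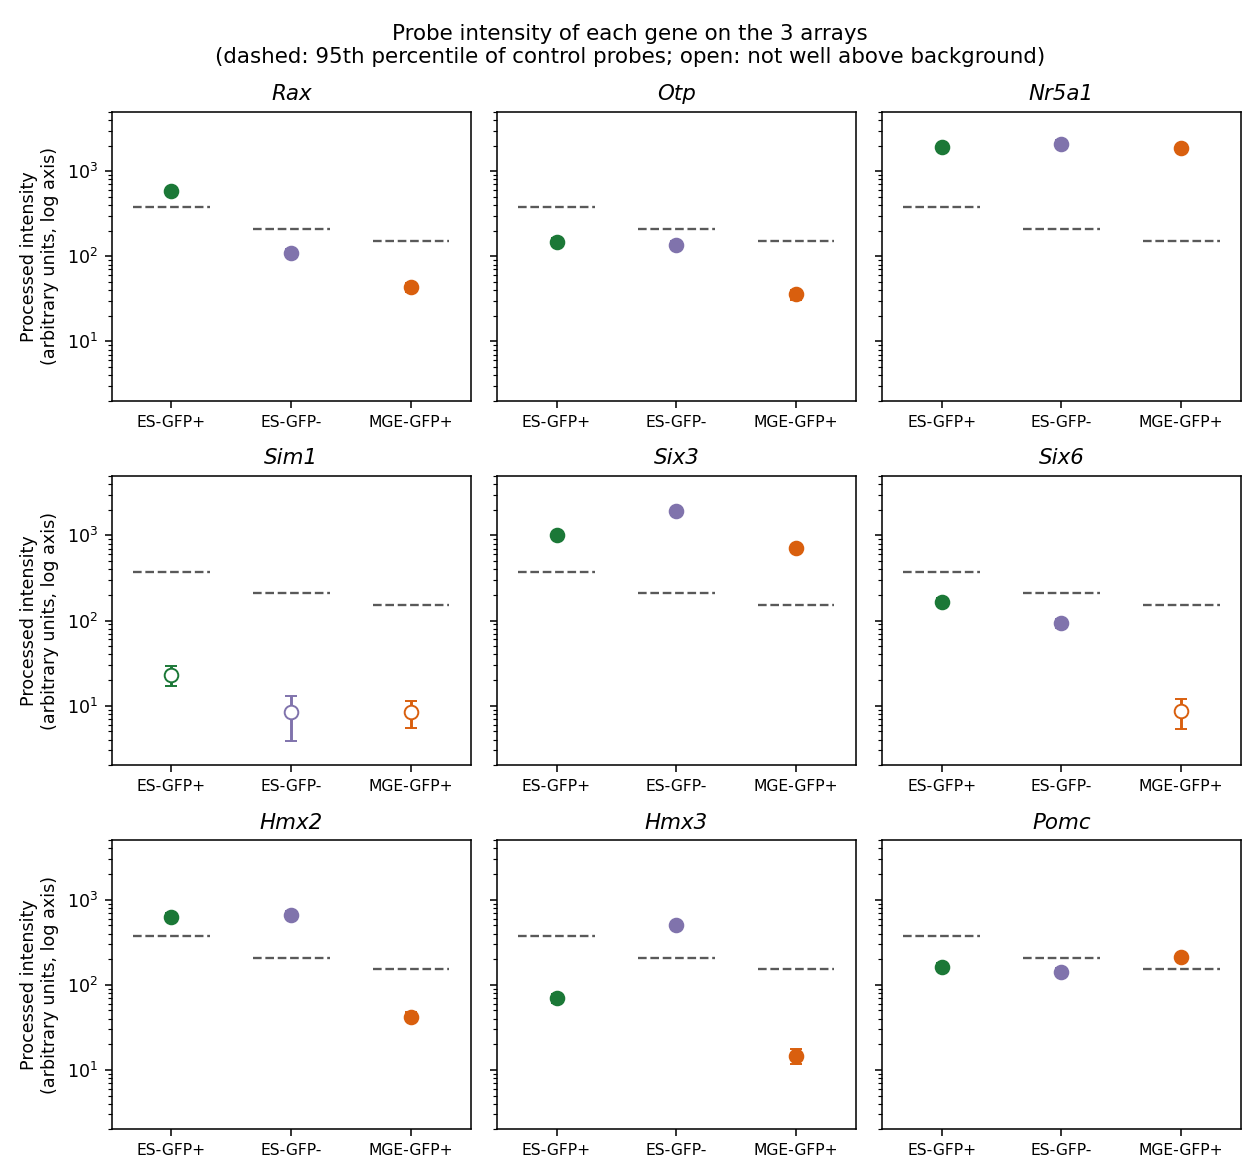
Processed intensity of the probe of each gene (log axis, arbitrary units) on the ES-GFP+, ES-GFP- and MGE-GFP+ arrays. Points are single spots with the software's error, open points were not well above background, and dashed lines mark the 95th percentile of the control probes (377, 208 and 152). *Rax*, *Hmx2*, *Hmx3* and *Pomc* cross the dashed line between arrays, and levels of different genes cannot be compared because each probe binds differently.

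Between ES-GFP+ and ES-GFP- cells, *Rax* was the 1 gene of the 8 with a value that was called higher, where 0.681% of 18655 genes were called higher. *Hmx3* was the 1 gene called lower, where 1.6% of all genes were. Between MGE-GFP+ and ES-GFP+ cells no gene of the 8 was called higher (0.463% of 18580 genes), and *Rax* and *Hmx2* were called lower (1.91% of all genes). Between MGE-GFP+ and ES-GFP- cells none was called higher (1.4% of 17025 genes), and *Hmx2* and *Hmx3* were called lower (5.12% of all genes). The 3 comparisons share arrays, so they are not independent of each other. The median log2 difference of all genes was 0.27, -0.36 and -0.06 in these 3 comparisons. It became -0.18, 0.40 and 0.25 after scaling to the 50th percentile and -0.0012, 0.05 and 0.05 after quantile normalization.

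*Rax* (NM_013833) encodes a paired-type homeodomain factor needed for the eye field and for early hypothalamic progenitors. Its intensity was 580 ± 58.2 for ES-GFP+, 110 ± 11.6 for ES-GFP- and 43.3 ± 5.03 for MGE-GFP+ cells. The ES-GFP+ array stood above the other two, on which the probe was within the range of the controls. The signal of ES-GFP+ cells was 1.54 times the 95th percentile of the controls, and 3 of the 106 control probes were brighter. *Rax* was 5.98-fold higher in ES-GFP+ than in ES-GFP- cells, a log2 difference of 2.58, and 2.31 relative to the median of all genes. At least as large a positive difference was found for 732 of 18655 genes. In MGE-GFP+ cells *Rax* was 10.3-fold lower than in ES-GFP+ cells (log2 difference -3.37, and -2.05 with the log2 values that the authors deposited). Both of these differences from ES-GFP+ cells were larger than 2 SDs of repeat spots. *Rax* was also 1.73-fold lower in MGE-GFP+ than in ES-GFP- cells (-0.79), where both signals were within the range of the controls and the difference was -0.16 with the deposited log2 values. When all values under the controls' 95th percentile were raised to it (the control floor), *Rax* was at least 3.14-fold higher in ES-GFP+ than in ES-GFP- cells and at least 2.95-fold lower in MGE-GFP+ than in ES-GFP+ cells. With the deposited log2 values, the difference between the ES populations was 1.88 and no longer reached 4-fold.

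*Six3* (NM_011381) encodes a sine oculis-type homeodomain factor that keeps the anterior forebrain anterior. Its intensity was 1009 ± 101 for ES-GFP+, 1912 ± 191 for ES-GFP- and 703 ± 70.4 for MGE-GFP+ cells. All 3 values lay above the controls, with the ES-GFP- array highest. *Six3* was 1.68-fold lower in ES-GFP+ than in ES-GFP- cells (log2 difference -0.75) and 1.86-fold lower in MGE-GFP+ than in ES-GFP- cells (-0.89), both larger than 2 SDs of repeat spots. The MGE-GFP+ and ES-GFP+ arrays differed by -0.15, within 2 SDs, and by 0.60 in the other direction after scaling to the 50th percentile.

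*Six3os1*, the long noncoding RNA transcribed next to *Six3* from the opposite strand, had 3 probes that disagreed. The probe for NR_015386 was at 140 for ES-GFP+, 924 for ES-GFP- and 98.4 for MGE-GFP+ cells, which was 5.86-fold lower in ES-GFP+ than in ES-GFP- cells. The probe for NR_015385 was at 190, 22.1 and 17.8, which was 9.68-fold higher in ES-GFP+ cells but within the range of the controls on each array. The probe for NR_015387 was not well above background on any array. No direction is therefore given for the gene.

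*Six6* (NM_011384), the relative of *Six3* that acts in retina, hypothalamus and pituitary, was at 166 ± 17.5 for ES-GFP+, 93.0 ± 10.5 for ES-GFP- and 8.66 ± 3.27 for MGE-GFP+ cells. It was within the range of the controls on each array and not well above background for MGE-GFP+ cells. It was 2.01-fold higher in ES-GFP+ than in ES-GFP- cells (log2 difference 1.01, but 0.21 with the deposited log2 values and 0.38 after quantile normalization). Against the detection floor of the MGE-GFP+ array, *Six6* was at least 10.6-fold higher in ES-GFP+ and at least 5.26-fold higher in ES-GFP- cells. These bounds were taken after background subtraction. With the deposited log2 values, which have none and lay close to a quantile-normalized scale, the difference between MGE-GFP+ and ES-GFP+ cells was -0.86. Background and scaling both changed there, so the move cannot be put down to either alone.

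*Hmx2* and *Hmx3* encode related NK-type homeodomain factors. They are adjacent genes on chromosome 7, between *Acadsb* and *Bub3* among the genes on the arrays, and serve partly redundant roles in the hypothalamus and the inner ear. Because the pair did not move together between the ES populations, the RefSeq promoters of both genes (GRCm38.p6, plus strand, from 250 bases before to 50 bases after the start of transcription) are shown. Capitals mark GGGCGG or its reverse complement CCGCCC, the GC box bound by Sp factors. The *Hmx3* promoter lies at chr7:131542713-131543012, and *Hmx2* has promoters at chr7:131548507-131548806 and chr7:131554043-131554342.
Hmx3: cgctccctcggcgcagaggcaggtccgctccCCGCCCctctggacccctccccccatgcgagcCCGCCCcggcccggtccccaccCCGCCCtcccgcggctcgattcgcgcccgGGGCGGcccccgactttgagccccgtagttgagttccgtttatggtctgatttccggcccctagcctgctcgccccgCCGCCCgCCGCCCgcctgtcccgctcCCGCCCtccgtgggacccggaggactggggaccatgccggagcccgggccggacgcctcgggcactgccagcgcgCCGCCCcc
Hmx2, first promoter: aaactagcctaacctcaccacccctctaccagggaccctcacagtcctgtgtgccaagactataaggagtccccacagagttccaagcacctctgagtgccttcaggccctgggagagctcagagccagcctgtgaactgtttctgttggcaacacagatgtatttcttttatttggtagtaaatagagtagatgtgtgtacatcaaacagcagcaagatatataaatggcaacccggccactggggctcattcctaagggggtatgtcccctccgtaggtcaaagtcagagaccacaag
Hmx2, second promoter: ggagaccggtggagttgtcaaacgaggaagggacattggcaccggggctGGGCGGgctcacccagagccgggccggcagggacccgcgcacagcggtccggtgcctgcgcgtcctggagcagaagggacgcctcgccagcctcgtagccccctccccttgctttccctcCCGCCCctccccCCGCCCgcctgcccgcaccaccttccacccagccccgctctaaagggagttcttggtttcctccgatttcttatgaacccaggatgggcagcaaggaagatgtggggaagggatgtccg

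The *Hmx3* promoter held 8 GC boxes, 39 CpG dinucleotides and 78% G and C. The first promoter of *Hmx2* held 0 GC boxes and 2 CpG, and the second held 3 GC boxes and 22 CpG. Of 32851 mouse promoters of the same length, 35.7% held at least 1 GC box. The letters TAATTA, a core that homeodomain factors bind and that reads the same on both strands, were found in 5.29% of all promoters. CACTTG or its reverse complement CAAGTG, the core of NK2-type factors such as Nkx2-1, was found in 13.6%. Neither was found in any of these 3 promoters. Promoters were at hand for 7 of the 9 genes and not for *Rax* and *Nr5a1*. Of the 8 promoters of these 7 genes, 1 (*Pomc*) held TAATTA, 0 held CACTTG and 5 held the GC box. A match describes the sequence and does not show that a factor binds there.

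*Hmx2* (NM_145998) was at 632 ± 63.4 for ES-GFP+, 661 ± 66.2 for ES-GFP- and 42.4 ± 4.93 for MGE-GFP+ cells. Both ES arrays were above the controls and level with each other, and the MGE-GFP+ array was within their range. The ES arrays differed by 0.11 on the log2 scale, within 2 SDs of repeat spots, and by -0.33 after scaling to the 50th percentile. *Hmx2* was 11.5-fold lower in MGE-GFP+ than in ES-GFP+ cells (log2 difference -3.52) and 10.6-fold lower than in ES-GFP- cells (-3.41). With the deposited log2 values these differences were -2.28 and -2.29. With values raised to the controls' 95th percentile, it was at least 3.21-fold and at least 2.97-fold lower.

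*Hmx3* (NM_008257) was at 69.6 ± 8.54 for ES-GFP+, 499 ± 50.1 for ES-GFP- and 14.6 ± 2.91 for MGE-GFP+ cells. Here the ES-GFP- array stood above the other two, both of which were within the range of the controls. On the ES-GFP+ array 53 of the 106 control probes were brighter than *Hmx3*. *Hmx3* was 6.36-fold lower in ES-GFP+ than in ES-GFP- cells, a log2 difference of -2.67, and -2.93 relative to the median of all genes. At least as large a negative difference was found for 121 of 18655 genes. It was 23.3-fold lower in MGE-GFP+ than in ES-GFP- cells (log2 difference -4.54, and -2.61 with the deposited log2 values), where 134 of 17025 genes were as low. MGE-GFP+ cells were also 3.66-fold lower than ES-GFP+ cells (-1.87), a difference within the range of the controls that was -0.03 with the deposited log2 values. The 95th percentile of the controls was high on the ES-GFP+ array. With values raised to it, *Hmx3* was at least 1.17-fold lower in ES-GFP+ and at least 2.25-fold lower in MGE-GFP+ than in ES-GFP- cells.

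The log2 differences of *Hmx2* and *Hmx3* between the ES populations were 2.78 apart, compared with 0.56 for 2 SDs of such a contrast between repeat spots. A common scaling of the arrays cancels in this contrast, which was the same after scaling to the 50th percentile. It ran from 2.02 with normexp background correction to 3.81 after quantile normalization, apart from 0.34 with the controls' 95th percentile as the floor. The neighbor *Acadsb* was at 189 for ES-GFP+ and 141 for ES-GFP- cells, and *Bub3* at 1293 and 1396.

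*Otp* (NM_011021), a homeodomain factor of paraventricular and arcuate neurons, was at 146 ± 15.7 for ES-GFP+, 137 ± 14.6 for ES-GFP- and 35.6 ± 4.77 for MGE-GFP+ cells, all within the range of the controls. The ES arrays differed by less than 2 SDs of repeat spots (log2 difference 0.27, and -0.41 after quantile normalization). MGE-GFP+ cells were 3.16-fold lower than ES-GFP+ cells (-1.66), but by only -0.08 with the deposited log2 values. *Sim1* (NM_011376), a bHLH-PAS factor of the same neurons, was at 23.0 ± 5.92, 8.51 ± 4.66 and 8.45 ± 2.95 in that order. It was not well above background on any array, so no difference is given. Its dimerization partner *Arnt2*, which many other neurons also express, was at 10752 for ES-GFP+, 6585 for ES-GFP- and 8718 for MGE-GFP+ cells.

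*Nr5a1* (NM_139051) encodes the nuclear receptor steroidogenic factor, which directs ventromedial hypothalamic neurons, gonad and adrenal. Its intensity was 1906 ± 191 for ES-GFP+, 2110 ± 211 for ES-GFP- and 1853 ± 185 for MGE-GFP+ cells. All 3 arrays were at a similar level, and 1 control probe of 106 was brighter on each. The log2 differences were 0.03, 0.33 and 0.36 for ES-GFP+ against ES-GFP-, MGE-GFP+ against ES-GFP+ and MGE-GFP+ against ES-GFP- cells, each within 2 SDs of repeat spots. After scaling to the 50th percentile they were -0.41, 1.08 and 0.67, each past 2 SDs. Relative to the median of all genes they were -0.24, 0.69 and 0.42.

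Among 9 steroidogenic genes, several of them targets of *Nr5a1*, none was above the controls on all 3 arrays. *Cyp19a1* was above them for ES-GFP+ and MGE-GFP+ cells, and *Star* for ES-GFP- cells. *Cyp11a1*, *Hsd3b1* and *Lhcgr* were not well above background on any array. *Cyp19a1*, the aromatase that makes estrogen, was at 734 for ES-GFP+, 150 for ES-GFP- and 305 for MGE-GFP+ cells, and was the 1 gene of this list called different (5.53-fold higher in ES-GFP+ than in ES-GFP- cells). It was at least 3.98-fold higher under the control floor, and the call was lost. *Nr0b1*, a partner of *Nr5a1* in gonad, pituitary and ventromedial hypothalamus, was at 88.0, 20.8 and 5.04, within the range of the controls. The list median was 1.16, -1.05 and -0.50 in the 3 comparisons, over 6, 6 and 5 genes with a value. The first ran from 0.26 with the deposited log2 values to 1.99 with the controls' 95th percentile as the floor, where it was the value of *Cyp19a1* alone. The last turned to 0.17 under that floor, where only *Cyp19a1* and *Star* had a value.

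*Pomc* (NM_008895) was at 164 ± 17.1 for ES-GFP+, 142 ± 14.6 for ES-GFP- and 211 ± 21.2 for MGE-GFP+ cells. The MGE-GFP+ array was highest, and its value was 1.39 times the 95th percentile of the controls there, with 5 control probes brighter. The ES arrays again differed by less than 2 SDs of repeat spots (log2 difference 0.39, and -0.25 with the deposited log2 values). MGE-GFP+ cells were 1.67-fold higher than ES-GFP+ cells (0.74) and 2.18-fold higher than ES-GFP- cells (1.13), under the 4-fold threshold. After scaling to the 50th percentile these were 1.49 and 1.43. With values raised to the controls' 95th percentile, *Pomc* was at least 1.48-fold higher in MGE-GFP+ than in ES-GFP- cells.

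Of 12 genes that process the Pomc precursor or act in the melanocortin pathway, 7 were above the controls on all 3 arrays. *Cpe*, a carboxypeptidase, was at 16678 for ES-GFP+, 14297 for ES-GFP- and 9719 for MGE-GFP+ cells. *Pcsk1*, the convertase that makes the first cuts in Pomc, was at 214, 94.1 and 238, above the controls only for MGE-GFP+ cells. The receptors *Mc3r* and *Mc4r* were within the range of the controls everywhere. *Nr3c1*, the glucocorticoid receptor, was called lower in MGE-GFP+ than in ES-GFP+ (7.45-fold) and than in ES-GFP- cells (9.60-fold). These were at least 3.27-fold, which is no longer a call, and at least 5.42-fold under the control floor. The list median was 0.48, -0.17 and 0.27 in the 3 comparisons, of which the second turned to 0.58 after scaling to the 50th percentile.

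**Figure D2:**
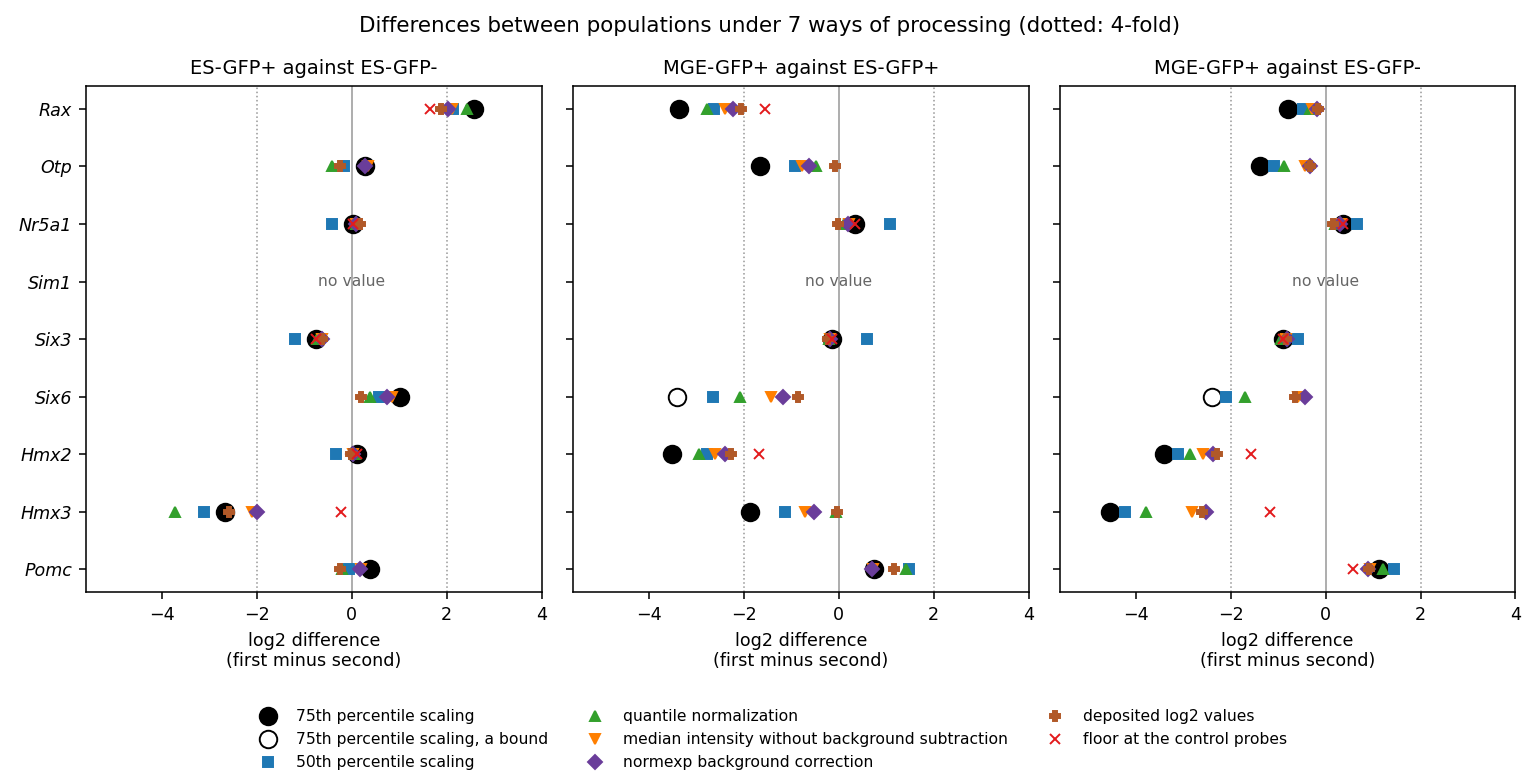
Log2 difference (first minus second population) of each gene in the 3 comparisons under 7 ways of processing, with dotted lines at 4-fold and open circles for bounds. *Rax*, *Hmx2* and *Hmx3* kept the direction of their called differences under each of these, and the crosses (controls' 95th percentile as the floor) lie nearest to 0 for the called differences.

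The wider hypothalamic program was described with lists of other genes. Of 17 tuberal genes, 1 was called lower in ES-GFP+ than in ES-GFP- cells and 0 higher, and the list median was -0.89 where that of all genes was 0.27. In MGE-GFP+ against ES-GFP+ cells 1 was lower and 0 higher (median -0.70, and 0.04 after scaling to the 50th percentile). In MGE-GFP+ against ES-GFP- cells 4 of 15 with a value were lower and 1 higher (median -0.88). Under the control floor 3 of these 5 were kept, without *Sox14* and *Tbx3*. *Nkx2-2*, a homeodomain factor of the ventral diencephalon, was at 652 for ES-GFP+, 1798 for ES-GFP- and 13.5 for MGE-GFP+ cells, and was at least 16.6-fold lower in MGE-GFP+ than in ES-GFP+ cells against the detection floor, and at least 8.88-fold with values raised to the controls' 95th percentile. *Sox14* was at 297, 872 and 19.0 and *Tbx3* at 179, 571 and 25.2, both above the controls only for ES-GFP- cells. *Nhlh2* was at 425, 2086 and 187, and was 4.34-fold lower in ES-GFP+ than in ES-GFP- cells. *Nkx2-1*, which the MGE and the tuberal hypothalamus share, was at 3673, 1444 and 8371. Of the 17 genes, 7 had a higher value in ES-GFP+ than in ES-GFP- cells and 10 a lower one. Among the 7 were *Bsx*, at 166, 28.5 and 28.6, and *Neurog3*, at 151, 64.5 and 29.5, both within the range of the controls on each array.

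Of 14 mammillary and posterior genes, 13 had a value in each comparison. ES-GFP+ cells were called lower than ES-GFP- cells for 5 and higher for 0 (median -1.31). MGE-GFP+ cells were called lower than ES-GFP+ cells for 3 (median -2.14) and lower than ES-GFP- cells for 8 (median -2.99), and higher for 0. None of these 3 medians changed sign under the alternatives. Of these calls, 3, 1 and 5 were kept under the control floor. The summed intensity of the list, in units of the array's 75th percentile, was 8.02 for ES-GFP+, 23.5 for ES-GFP- and 1.52 for MGE-GFP+ cells. *Irx3*, a factor of the posterior forebrain, was at 417, 4794 and 2.89 in the same order, a 10.2-fold difference between the ES populations. *Foxa1*, of the floor plate and midbrain, was at 229, 1831 and 2.39 and *Lmx1a*, of the caudal hypothalamus and midbrain, at 541, 4223 and 60.8. *Irx5* was at 104, 613 and 9.23 and *Lhx1* at 3654, 6279 and 539. The order of the arrays for these 5 genes was that of *Hmx3*, with ES-GFP- cells highest and MGE-GFP+ cells lowest.

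Of 7 paraventricular and supraoptic genes, 0 were called between the ES populations and 0 between MGE-GFP+ and ES-GFP+ cells. *Crh*, corticotropin-releasing hormone, was called higher in MGE-GFP+ than in ES-GFP- cells (at least 15.4-fold against the detection floor, and at least 1.33-fold with values raised to the controls' 95th percentile), at 97.0 for ES-GFP+, 17.9 for ES-GFP- and 189 for MGE-GFP+ cells. *Oxt* and *Avp*, the hormones of magnocellular neurons, were within the range of the controls everywhere. The list median was 0.40, -0.39 and -0.04 in the 3 comparisons, and turned to -0.05, 0.36 and 0.27 after scaling to the 50th percentile.

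*Rax*, *Six3* and *Six6* also belong to the eye field, for which 15 further genes were listed. The list median was 0.19 in ES-GFP+ against ES-GFP- cells (and -1.05 after quantile normalization), -1.40 in MGE-GFP+ against ES-GFP+ cells and -1.06 in MGE-GFP+ against ES-GFP- cells. None of the list was called between MGE-GFP+ and ES-GFP+ cells. Under the control floor only *Lhx2*, *Otx2* and *Vax2* had a value in that comparison, at 0.91, -0.45 and -0.08. *Vax1* was 11.4-fold and *Pax6* at least 10.8-fold lower in MGE-GFP+ than in ES-GFP- cells against the detection floor. With values raised to the controls' 95th percentile they were at least 2.10-fold and at least 1.31-fold lower. *Lhx2*, *Otx2* and *Vax2* were above the controls on all 3 arrays.

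Among 25 hypothalamic peptides and transmitter genes, 3 were called higher in ES-GFP+ than in ES-GFP- cells and 0 lower. The list median was 0.97, but 0.15 with the deposited log2 values, 0.25 after quantile normalization and 0.09 with the controls' 95th percentile as the floor. *Npy* was at 43541 for ES-GFP+, 8474 for ES-GFP- and 9410 for MGE-GFP+ cells, *Tac1* at 841, 149 and 3276 and *Sst* at 19636, 4519 and 9065. These 3 peptides are also made by interneurons of the MGE lineage. In MGE-GFP+ against ES-GFP+ cells 1 was higher and 2 were lower (median -0.77), and against ES-GFP- cells 3 were higher and 3 lower (median -0.14, and 0.17 after scaling to the 50th percentile). *Penk*, the enkephalin precursor, was 20.4-fold lower in MGE-GFP+ than in ES-GFP+ cells, at 4909 for ES-GFP+, 16601 for ES-GFP- and 185 for MGE-GFP+ cells. *Agrp*, the antagonist of melanocortin receptors, was 4.10-fold lower in MGE-GFP+ than in ES-GFP+ cells, and *Pmch* was 7.82-fold and *Cartpt* 5.75-fold lower in MGE-GFP+ than in ES-GFP- cells. Under the control floor these 3 were at least 3.18-fold, 6.88-fold and 3.05-fold lower, so that the calls of *Agrp* and *Cartpt* were lost, as were those of *Crh* and *Nts* between MGE-GFP+ and ES-GFP- cells. *Ghrh*, whose neurons need *Hmx2* and *Hmx3*, was at 129, 123 and 120, within the range of the controls.

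**Figure D3:**
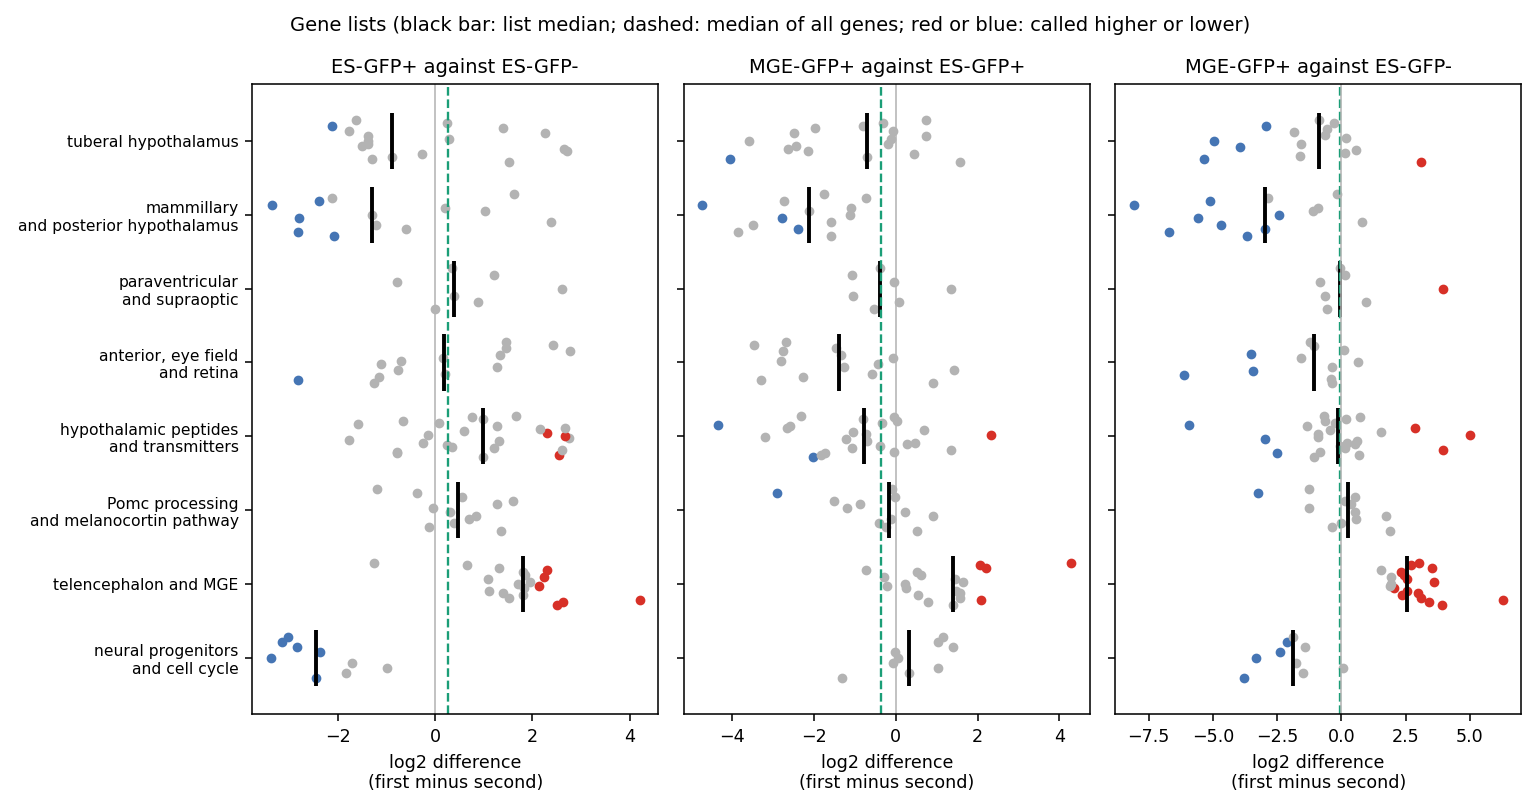
Log2 differences (first minus second population) of the genes of 8 lists, with red and blue points for genes called higher or lower, gray points for the rest, black bars for list medians and a dashed line for the median of all genes. The mammillary and posterior list lies to the left in each comparison (medians -1.31, -2.14 and -2.99), while the telencephalon and MGE list lies to the right (medians 1.81, 1.40 and 2.56).

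Genes of other cell states differed between the same arrays. Of the 19 telencephalon and MGE genes, 6 were called higher in ES-GFP+ than in ES-GFP- cells, among them *Lhx8* (18.4-fold) and *Lhx6*. Of the 3 *Lhx6* probes, 2 were 16.5-fold and 13.9-fold higher and the third 1.03-fold. MGE-GFP+ cells were called higher than ES-GFP+ cells for 4 (*Etv1*, *Zic1*, *Lhx8* and *Gbx2*) and higher than ES-GFP- cells for 15, *Sox6* being 12.2-fold higher. Of 9 progenitor and cell cycle genes, 6 were called lower in ES-GFP+ than in ES-GFP- cells (median -2.45), with *Vim* 10.4-fold, *Top2a* 8.91-fold, *Ccnb1* 8.16-fold and *Mki67* 7.15-fold lower. Under the control floor 4 of the 6 calls were kept, *Ccnb1* was at least 5.17-fold and *Mki67* at least 5.01-fold lower, and *Hes1* and *Top2a* were lost. In MGE-GFP+ cells 4 were called lower than in ES-GFP- cells, *Hes1* by 13.7-fold and *Fabp7* by 5.25-fold among them. Of these 4, 2 were kept under the control floor, and *Hes1* was at least 2.75-fold lower. Their summed intensity over the 75th percentile was 12.5 for ES-GFP+, 63.6 for ES-GFP- and 16.4 for MGE-GFP+ cells. *Dppa5a*, a gene of pluripotent cells, was at 185, 4732 and 39.2 in that order. *Hba-a1*, a globin of red blood cells, was at 646, 538 and 6004. The part of any of these in the differences of *Rax*, *Hmx2* and *Hmx3* was not tested. The control probes also differed, with a median intensity of 69.9 for ES-GFP+, 11.5 for ES-GFP- and 7.73 for MGE-GFP+ cells, and the share of probes well above background was 90.6%, 80.3% and 77.1%.

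The genes nearest in profile to *Rax*, *Hmx2* and *Hmx3* were found among 11999 genes by the root mean square distance of scaled log2 values over the 3 arrays, after subtraction of each gene's mean. *Slc13a4* (0.06), *Pramel7* (0.12) and *Vwa1* (0.14) were nearest to *Rax*, *Pidd1* (0.03), *Cpeb1* (0.04) and *Pisd-ps3* (0.09) to *Hmx2*, and *Diras2* (0.01), *Aldoc* (0.03) and *Selenop* (0.04) to *Hmx3*. *Slc13a4*, a sulfate transporter, was at 442 for ES-GFP+, 88.6 for ES-GFP- and 36.8 for MGE-GFP+ cells. *Diras2*, a small GTPase, was at 1038, 7419 and 214, so that unlike *Hmx3* it was above the controls on each array. With 3 arrays, a close match between profiles is a description only.

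**Figure D4:**
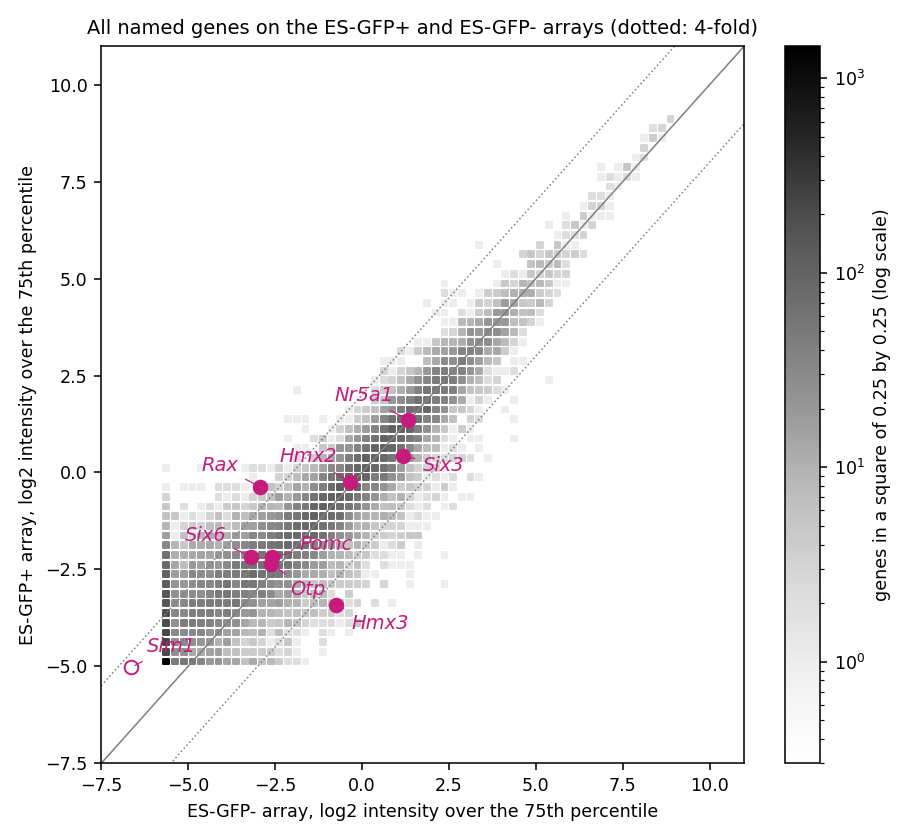
All named genes on the ES-GFP- (horizontal) and ES-GFP+ (vertical) arrays as log2 intensity over the array's 75th percentile, counted in squares of 0.25, with dim probes raised to the floor of their array, dotted lines at 4-fold and the 9 genes in magenta. *Rax* lies above the upper dotted line and *Hmx3* below the lower one, *Nr5a1* and *Hmx2* lie on the diagonal, and *Sim1* (open, at its measured value) was not well above background.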

How the data were processed

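Total RNA of 3 sorted populations was measured on 1 array each. The authors amplified and Cy3-labeled the RNA and extracted the images with Feature Extraction (version 10.7.3.1 per the file headers), and the files they deposited hold a linear intensity per spot after background subtraction, with no scaling between arrays. The amplification kit is given differently in the labels and the methods. A second deposited file holds log2 values of the 3 arrays. Their scale is not stated, but they lay within 0.315 of quantile-normalized log2 median intensity without background subtraction on every array, with column medians of 7.69, 7.68 and 7.69.

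From the scanner files, log2 intensity minus the array's 75th percentile over mouse probes was used. Outlier-flagged spots were dropped (135, 137 and 98 on the ES-GFP+, ES-GFP- and MGE-GFP+ arrays), and 0 were saturated. Dim probes, those called well above background by the software at under 0.5 of their spots, were raised to the lowest value among the other probes (an intensity of 23.5, 17.8 and 12.1), so that their folds are given as "at least". Several probes of a gene were averaged. RefSeq accessions (GRCm38.p6) named 26582 of 55681 probes. The calculations were tested on simulated data and used Python 3.11.15, numpy 2.4.6, pandas 2.3.3 and, for normexp, R 4.3.3 with limma 3.58.1.

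No test was made, since each group held 1 array, which limits the precision. The genes and the 14 gene lists were chosen with earlier results of these data known. Genes to be named were, from each list, those called in any comparison, at most 4 per list and comparison by size of difference, besides the 9 genes with every probe and the 3 nearest profiles of each of them that was called. Other genes named were chosen after their values were seen, and some genes that this rule takes are not reported here. Alternatives were other scalings, background corrections, floors and thresholds.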

Additional observations from a re-analysis of the deposited data

Results flagged for a closer look

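The brightest control probe for adenovirus E1A, a sequence that the sorted cells should not hold, gave an intensity of 3163 for ES-GFP+, 2700 for ES-GFP- and 3140 for MGE-GFP+ cells. It is listed because it lies far above the other control probes, of which the next brightest was at 802, 746 and 592. Its source was not tested.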

How the results depend on the processing

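The 2 calls in each comparison (*Rax* and *Hmx3*, *Rax* and *Hmx2*, *Hmx2* and *Hmx3*) were unchanged in 9, 10 and 10 of the 11 alternatives, apart from additions named below. Among the 11, the 2-fold threshold, the dropped condition on the controls and the use of the brightest probe could not remove a call. The dropped filter on dim probes could not either, since each called pair was well above background on both arrays. Keeping the outlier-flagged spots changed these genes only through the scaling of the arrays, since none of their spots was flagged. With the deposited log2 values 1 gene was called between ES-GFP+ and ES-GFP- cells (*Hmx3*). With the floor at the controls' 95th percentile, 0 were called in each of the 3 comparisons, since this floor is higher than the lower value of each called pair. With no condition on the controls *Six6* was called as well in both comparisons with MGE-GFP+ cells, and with a 2-fold threshold *Pomc* was called between MGE-GFP+ and ES-GFP- cells. *Sim1* had no difference to compare. Of 206 differences of the other 8 genes, 112 moved by no more than 1 SD of repeat spots, 94 by more, and 0 called differences changed sign. These counts leave out the 2-fold threshold and the dropped condition on the controls. They include use of the brightest probe in place of the mean, which could not move genes with 1 probe. They also include the dropped filter on dim probes, which could move only the differences of *Six6* with MGE-GFP+ cells. Keeping the outlier-flagged spots, also included, could move these genes only through the scaling. The differences that changed sign were those of *Otp*, *Nr5a1*, *Hmx2* and *Pomc* between the ES populations and of *Nr5a1* and *Six3* between MGE-GFP+ and ES-GFP+ cells.

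Of the listed genes, each counted once, 25, 17 and 51 were called in the 3 comparisons, and 18, 12 and 34 of these were kept with the floor at the controls. Over all genes, 425, 441 and 1110 were called in the comparisons of ES-GFP+ with ES-GFP-, MGE-GFP+ with ES-GFP+ and MGE-GFP+ with ES-GFP- cells. These were 255, 255 and 700 without background subtraction, 227, 207 and 586 with normexp, 334, 222 and 593 with the deposited values, 153, 164 and 517 with the floor at the controls, 591, 667 and 1118 after scaling to the 50th percentile, 611, 413 and 910 after quantile normalization, 1812, 2058 and 3252 at 2-fold, and 1870, 2603 and 1445 without the condition on the controls. Normexp was run on median spot signals, because the mean signal was not in the files used here. No array could be left out, and no paired analysis was possible because each group held 1 array. A dim signal limits *Sim1*, *Otp* and *Six6*, whose probes were within the range of the controls.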

Other observations

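Of 12 pituitary genes, *Lhx4* and *Lhx3*, homeodomain factors of the pituitary primordium and of some spinal neurons, were called lower in ES-GFP+ than in ES-GFP- cells (7.72-fold and 4.42-fold) and in MGE-GFP+ than in ES-GFP- cells (at least 49.4-fold and at least 42.9-fold against the detection floor). With values raised to the controls' 95th percentile, these were at least 2.05-fold and at least 1.78-fold lower in ES-GFP+ and at least 3.93-fold and at least 3.41-fold lower in MGE-GFP+ than in ES-GFP- cells. *Lhx3* was at 152 for ES-GFP+, 759 for ES-GFP- and 9.74 for MGE-GFP+ cells, and *Lhx4* at 100.2, 874 and 2.41. *Tbx19*, the factor that with *Pitx1* drives *Pomc* in pituitary cells, was within the range of the controls everywhere. The list median was 0.77, -1.88 and -1.11 in the 3 comparisons.

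Because *Hmx2* and *Hmx3* also act in the inner ear, 7 otic genes were listed. *Gata3* was at 2589 for ES-GFP+, 9762 for ES-GFP- and 4.02 for MGE-GFP+ cells, at least 165-fold lower in MGE-GFP+ than in ES-GFP+ cells and at least 552-fold lower than in ES-GFP- cells against the detection floor. These bounds were 13.2-fold and 43.9-fold with values raised to the controls' 95th percentile. It was the 1 gene of that list that was called, and the list median was 0.37, -0.97 and -0.89. Of 8 paralogs and neighbors of the 9 genes, *Hmx1*, *Sim2* and *Nr5a2* among them, 0 were called in any comparison (median 0.35, -0.94 and -1.14). Between the ES populations the medians of the pituitary, otic and paralog lists turned to -0.67, -0.15 and -0.57 after quantile normalization. The paralog median for MGE-GFP+ against ES-GFP+ cells turned to 0.40 there.

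Of 11 mesenchyme, vessel and blood genes, 3 were called higher in MGE-GFP+ than in ES-GFP+ cells and 1 lower (median -0.10), and 2 higher and 2 lower than in ES-GFP- cells (median 1.00), with 0 called between the ES populations (median 0.51). *Hbb-y*, an embryonic globin, was at 30.2 for ES-GFP+, 13.3 for ES-GFP- and 5629 for MGE-GFP+ cells, and *Col1a2* at 1072, 1902 and 90.2. *Col1a1* was at least 14.3-fold lower in MGE-GFP+ than in ES-GFP- cells against the detection floor, and at least 1.14-fold under the control floor. *Kdr*, a receptor of vessel cells, had 2 probes that disagreed, at 23.7 for ES-GFP+, 57.3 for ES-GFP- and 266 for MGE-GFP+ cells and at 847, 1081 and 821, so no direction is given although their mean was called. Under the control floor the medians of this list turned to -0.14 for ES-GFP+ against ES-GFP- and 0.43 for MGE-GFP+ against ES-GFP+ cells. Of 4 pluripotency genes, 1 was lower in ES-GFP+ than in ES-GFP- cells (median -0.72). Between MGE-GFP+ and ES-GFP+ cells 0 were called (median -1.59). With the controls' 95th percentile as the floor that median became 0.34, which was the value of *Nanog* alone. In MGE-GFP+ cells 3 (*Dppa5a*, *Pou5f1* and *Zfp42*) were lower than in ES-GFP- cells (median -2.68). Under the control floor *Dppa5a* was at least 21.3-fold, *Pou5f1* at least 2.75-fold and *Zfp42* at least 1.06-fold lower, so that 1 of these 3 calls was kept. The probe of *Nanog* was at 230708 for ES-GFP+, 251126 for ES-GFP- and 225105 for MGE-GFP+ cells, and that of *Eya1* at 359806, 315152 and 363355. As with *Nr5a1*, these probes were bright at a similar level in all 3 populations, although *Nanog* is known from pluripotent cells. The transcripts that these 3 probes bound were not tested.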
